A study of Penicillium oxalicum with 9 samples.

Results

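Bgl1 and Bgl2 are the beta-glucosidase genes with the highest FPKM of this enzyme class in wild type Penicillium oxalicum, a filamentous fungus that secretes enzymes able to break down plant cell walls. They were taken by identifier, PDE_02736 for Bgl1 and PDE_00579 for Bgl2, and are 2 of the 9907 genes in the deposited table. Both passed the filter on low values and were among the 9097 genes tested. The deposited descriptions call both a beta-glucosidase of class EC 3.2.1.21. Bgl1 is also described as beta-glucosidase I, and Bgl2 as a putative protein of glycoside hydrolase family 1.

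Beta-glucosidases carry out the last step of cellulose breakdown. Cellobiohydrolases and endoglucanases release cellobiose and short cellodextrins from cellulose, and a beta-glucosidase splits these into glucose, either outside the cell or after a cellodextrin transporter has taken them up. In this fungus Bgl1 is known as the main secreted beta-glucosidase and Bgl2 as an intracellular one. ClrB is a transcription factor needed for the induction of cellulase genes. RcoA belongs to the Tup1-type corepressors, proteins that are recruited by DNA-binding factors to hold genes down.

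Transcripts were measured in mycelia of 3 strains with 3 libraries each, a clrB deletion, an rcoA deletion and the wild type 114-2. Every strain was pre-grown from conidia for 22 h at 30 °C with 2% glucose, and washed mycelia then spent 24 h with 1% wheat bran plus 1% cellulose as the carbon source, so each value belongs to 1 medium and 1 time. The labels give no further allele and do not say whether a deletion strain is a single clone. Separate cultures for the libraries of 1 strain are not stated either, so the spread behind each p-value may be technical. Values are FPKM, a fragment count scaled to transcript length and library size, and means are given ± SD with n = 3. In a bulk sample, fewer cells with a transcript and less of it per cell cannot be told apart.

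The FPKM of a library summed to between 776855 and 820648, and 9597 to 9724 genes had a value above 0. No counts were used, so the depth of each library is unknown. ClrB (PDE_05999) read 0.11, 0.11 and 0.08 FPKM in the clrB deletion, against 191, 200.2 and 163 in the wild type. The labels give no locus for rcoA; PDE_01024, described as TUP1, averaged 2.71 ± 0.651 FPKM in the rcoA deletion and 67.8 ± 2.64 in the wild type. Correlations of log2 values between libraries were 0.984 to 0.993 within the rcoA deletion and 0.985 to 0.991 within the wild type. In the clrB deletion replicates 1 and 3 correlated at 0.991, while replicate 2 stood apart from them at 0.946 and 0.957. Results for the clrB deletion that turn on replicate 2 are therefore given with and without it.

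Bgl2 was far lower without clrB and moderately lower without rcoA. The 3 libraries of the clrB deletion read 6.45, 10.2 and 7.16 FPKM, those of the rcoA deletion 295, 343 and 374, and those of the wild type 1203, 1004 and 767. The strains did not overlap, with every clrB deletion library far below every other library and the rcoA deletion between the clrB deletion and the wild type. Means were 7.93 ± 1.99 in the clrB deletion, 337 ± 39.5 in the rcoA deletion and 991 ± 218 in the wild type. Bgl2 was 125-fold lower in the clrB deletion than in the wild type, a log2 change of -6.79 (SE 0.20, 95% interval -7.24 to -6.35, limma adjusted p = 1.38e-07). A log2 change here is the difference of mean log2(FPKM + 1), which understates the change of low genes, and a gene is called at a Benjamini-Hochberg adjusted p under 0.05 over all tested genes. In this comparison 21.8% of tested genes were called, 8.32% lower and 13.5% higher, and 38.9% had libraries that did not overlap. Only 5 tested genes had a lower log2 change than Bgl2 in it, which placed Bgl2 6th from the bottom of 9097. ClrB, the deleted gene itself, was among the 5 (log2 change -7.40).

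Bgl1 gave a different picture in the same libraries. It read 560, 1490.4 and 667 FPKM in the clrB deletion, against 228, 249 and 221 in the rcoA deletion and 580.5, 661 and 607 in the wild type. The clrB deletion overlapped the wild type, with replicate 1 below, replicate 2 above and replicate 3 just above the wild type libraries. The means were 906 ± 509 in the clrB deletion and 616 ± 40.9 in the wild type, and the change was not called (log2 change 0.42, SE 0.31, 95% interval -0.27 to 1.11, limma adjusted p = 0.343). Without replicate 2 of the clrB deletion the log2 change was -0.00918 (SE 0.12, 95% interval -0.28 to 0.26, limma adjusted p = 0.961). The interval over all libraries allows a rise of about 1 log2 unit, so it does not show that Bgl1 was at its wild type level. The intervals of Bgl1 and Bgl2 in this comparison lay far apart.

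Both genes were lower in the rcoA deletion than in the wild type, each without overlap between the libraries. Bgl1 averaged 233 ± 14.9 FPKM in the rcoA deletion and 616 ± 40.9 in the wild type, 2.65-fold lower (log2 change -1.40, SE 0.31, 95% interval -2.09 to -0.71, limma adjusted p = 0.00314). Bgl2 was 2.94-fold lower in the rcoA deletion (log2 change -1.53, SE 0.20, 95% interval -1.98 to -1.09, limma adjusted p = 0.000137). Each SE pools the spread of all 9 libraries, so that of Bgl1 takes in its wide spread in the clrB deletion, a strain not compared here. Under 20 alternative settings the limma adjusted p of this Bgl1 change ran from 2.58e-06 to 0.0137. With these pooled SEs, the intervals of both changes overlapped. Falls of this kind were common, since 64.5% of tested genes were called, 34.1% lower and 30.4% higher, and 73.9% had no overlap between these strains. In the order of log2 changes Bgl1 was 901st from the bottom of 9097 and Bgl2 780th, so 9.89% and 8.56% of tested genes had lower changes.

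The deletions also differed from each other, in opposite directions for both genes. Bgl1 was 3.89-fold higher in the clrB deletion than in the rcoA deletion (log2 change 1.82, SE 0.31, 95% interval 1.13 to 2.51, limma adjusted p = 0.000818), and without replicate 2 of the clrB deletion the log2 change was 1.39 (adjusted p = 9.17e-06). Bgl2 was 42.5-fold lower in the clrB deletion than in the rcoA deletion (log2 change -5.26, SE 0.20, 95% interval -5.71 to -4.81, limma adjusted p = 1.32e-07). Between the deletions 60.1% of tested genes were called, 35.2% higher and 24.9% lower in the clrB deletion, and 65.5% did not overlap. The order of strains was therefore clrB deletion, rcoA deletion, wild type for Bgl2 from low to high, with every neighbour separated. For Bgl1 the rcoA deletion was lowest, and the clrB deletion and the wild type were not separated beyond their spread.

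**Figure D1:**
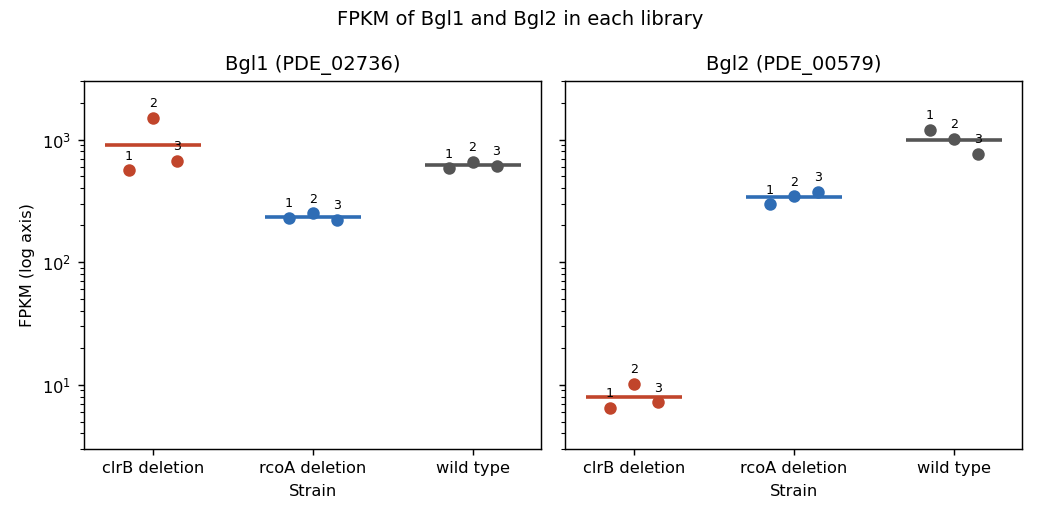
FPKM of Bgl1 (left) and Bgl2 (right) on a log axis, by strain; each point is 1 library and the horizontal line is the mean of 3 libraries. Bgl2 lies between 6.45 and 10.2 FPKM in the clrB deletion and at 295 FPKM or more elsewhere, whereas Bgl1 in the clrB deletion spans 560 to 1490.4 and covers the wild type range.

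The spread between libraries differed by gene and strain. The coefficient of variation of Bgl1 was 56.2% in the clrB deletion, 6.41% in the rcoA deletion and 6.64% in the wild type. For Bgl2 it was 25.0% in the clrB deletion, 11.7% in the rcoA deletion and 22.0% in the wild type. Replicate 2 of the clrB deletion held 2.43-fold as much Bgl1 as the mean of replicates 1 and 3, which was 613.5 FPKM, and 2.35% of tested genes had a larger rise in that library. For Bgl2 the difference of log2(FPKM + 1) between replicate 2 and that mean of the other libraries was 0.52, and 10.1% of tested genes had a larger one. Over all tested genes 3936 of 9097 were above the mean of replicates 1 and 3 in replicate 2.

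Of 5 markers of conidiating cells, 3 were lower in the same library than the mean of replicates 1 and 3, 1 was higher and 1 was about level. The list held 5 genes: the conidiation regulator BrlA (PDE_00087), the regulator FlbD (PDE_03008), the spore pigment enzymes scytalone dehydratase PDE_04496 and PDE_09236, and a gene described as the spore wall protein DIT1 (PDE_01188). Their summed FPKM was 726, 329 and 636 in the clrB deletion, against 361, 276 and 259.6 in the rcoA deletion and 169, 302 and 304 in the wild type, so replicate 2 of the clrB deletion was the low one of its strain. BrlA, PDE_04496 and FlbD carried that sum, at 0.247-fold, 0.256-fold and 0.665-fold the mean of replicates 1 and 3 in replicate 2. PDE_09236 was at 0.998-fold, and PDE_01188 was higher there, at 1.53, 3.97 and 1.36 FPKM in the clrB deletion. BrlA read 149, 33.4 and 121 FPKM in the clrB deletion, against 13.0, 12.4 and 13.7 in the rcoA deletion and 18.2, 27.9 and 28.5 in the wild type. FlbD read 321, 252 and 243 FPKM in the rcoA deletion and 109, 207 and 220 in the wild type. It made up most of the sum in each of these libraries. PDE_04496 averaged 0.48 FPKM in the rcoA deletion and 45.4 in the wild type, so the sum does not show the falls of the other markers there. Of the 5 markers, 2 were called higher and 0 lower in the clrB deletion against the wild type. Over all tested genes 13.5% were called higher and 8.32% lower there. In the rcoA deletion 0 markers were called higher and 2 lower, beside 30.4% higher and 34.1% lower of all tested genes. The higher calls in the clrB deletion were those of BrlA, lost under 6 of 20 alternatives, and FlbD, lost under 14. Without replicate 2 of the clrB deletion 3 markers were called higher in that deletion. The count was 0 without clrB deletion replicate 1 or 3 or wild type replicate 1 or 2, and 1 without wild type replicate 3 or any 1 rcoA deletion library. PDE_09236 was listed at 0 in every rcoA deletion library, and 0 of the 5 markers were at 0 in any other library. The part of conidiating cells in the values of Bgl1 and Bgl2 was not tested.

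Set against each other, the genes changed order in the clrB deletion. FPKM divides by a transcript length, while the tags sequenced here start at 1 kind of cutting site in the cDNA, so levels of different genes can be compared only as far as that scaling holds. Bgl1 had 86.8, 146 and 93.2 times the FPKM of Bgl2 in the clrB deletion. Bgl2 had 1.29, 1.38 and 1.69 times the FPKM of Bgl1 in the rcoA deletion and 2.07, 1.52 and 1.26 times in the wild type. The difference of log2(FPKM + 1), Bgl2 minus Bgl1, averaged -6.55 ± 0.445 in the clrB deletion, 0.53 ± 0.203 in the rcoA deletion and 0.66 ± 0.36 in the wild type. A change in this difference between strains does not depend on the gene lengths used, apart from the pseudocount. The rcoA deletion and wild type libraries overlapped in it, and the clrB deletion libraries all lay below them.

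Among all 9907 genes ranked by FPKM within a library, Bgl1 stood at 169, 53 and 133 in the clrB deletion, against 548, 507 and 585 in the rcoA deletion and 176, 152 and 169 in the wild type. Bgl2 stood at 7817, 7077 and 7662 in the clrB deletion, against 419, 365 and 332 in the rcoA deletion and 83, 99 and 132 in the wild type. In the wild type Bgl2 thus ranked above Bgl1 in each library, and in the clrB deletion it was among the lower ranks of the table.

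The table described 14 genes as EC 3.2.1.21, of which 13 were tested, PDE_02413 being the one left out, at no more than 0.42 FPKM in any library. Their FPKM summed to 771, 1759 and 883 in the clrB deletion, against 1059, 1122 and 1139 in the rcoA deletion and 2467, 2277 and 1851 in the wild type. Bgl1 made up 72.6%, 84.7% and 75.6% of that sum in the clrB deletion, against 21.6%, 22.2% and 19.4% in the rcoA deletion and 23.5%, 29.0% and 32.8% in the wild type. Bgl2 made up 0.837%, 0.579% and 0.811% in the clrB deletion, against 27.9%, 30.6% and 32.8% in the rcoA deletion and 48.8%, 44.1% and 41.4% in the wild type. In the clrB deletion the sum was thus mostly Bgl1, and in the rcoA deletion the other 12 genes held 47.2% to 50.5% of it, against 25.8% to 27.7% in the wild type. The summed FPKM of these 12 genes was 535, 530 and 545 in the rcoA deletion and 683, 613 and 478 in the wild type, which overlap, so the larger share went with lower Bgl1 and Bgl2. In the clrB deletion the 12 genes summed to 205, 258 and 208 FPKM, below every library of the other strains.

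**Figure D2:**
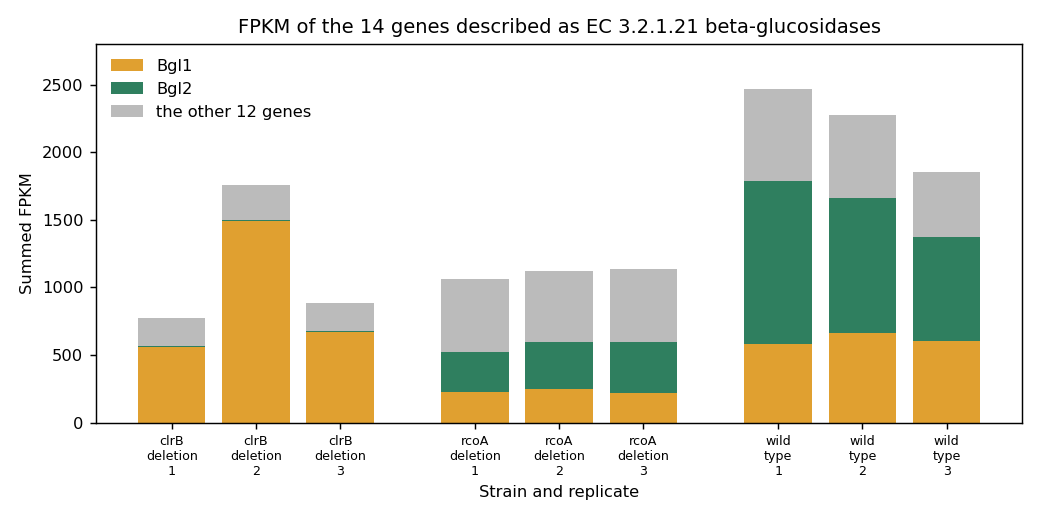
Summed FPKM of the 14 genes described as EC 3.2.1.21 in each of the 9 libraries, stacked as Bgl1, Bgl2 and the other 12 genes. The Bgl2 segment is under 1% of the bar in the clrB deletion and 41.4% to 48.8% in the wild type, and replicate 2 of the clrB deletion has the tallest Bgl1 segment.

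Of the other beta-glucosidases of the class, 11 were tested, and none of them was called higher in the clrB deletion over all libraries. Against the wild type, 4 of the 11 were called lower there and 7 were not called, with a median log2 change of -0.17 beside 0.08 over all tested genes, of which 8.32% were called lower and 13.5% higher. Without replicate 2 of the clrB deletion 2 of the 11 were called higher and 4 lower, and with any other library left out 0 higher and 3 lower. In the rcoA deletion 1 of the 11 was called higher and 5 lower, with a median of -0.22 beside -0.04 over all tested genes, of which 30.4% were called higher and 34.1% lower. Without rcoA deletion replicate 1 or clrB deletion replicate 1 or 2, 2 were called higher. Between the deletions 3 of the 11 were called higher and 6 lower in the clrB deletion, and 5 higher without clrB deletion replicate 2. These genes are annotated by description alone, and near-identical copies may share reads.

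Next in level to Bgl2 and Bgl1 in the wild type was PDE_04251. It read 45.7, 32.8 and 44.7 FPKM in the clrB deletion, against 216, 221 and 237 in the rcoA deletion and 215, 202 and 121 in the wild type. It was 4.38-fold lower in the clrB deletion than in the wild type (log2 change -2.07, SE 0.21, limma adjusted p = 0.000434) and was not called in the rcoA deletion (log2 change 0.36, adjusted p = 0.16). In the rcoA deletion its range met that of Bgl1, at 221 to 249 FPKM, so PDE_04251 and Bgl1 were not separated there.

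PDE_04859 was lower in both deletions. It read 32.5, 37.3 and 30.5 FPKM in the clrB deletion, against 48.9, 52.8 and 61.8 in the rcoA deletion and 187, 168 and 145 in the wild type, 4.99-fold lower in the clrB deletion (limma adjusted p = 1.23e-05) and 3.06-fold lower in the rcoA deletion (adjusted p = 8.17e-06). PDE_09710, also described as a putative beta-xylosidase, averaged 9.94 ± 2.65 FPKM in the clrB deletion, 23.1 ± 2.00 in the rcoA deletion and 59.4 ± 19.0 in the wild type. It was 5.97-fold lower in the clrB deletion (adjusted p = 0.000385) and 2.57-fold lower in the rcoA deletion (adjusted p = 0.00154). For PDE_04251, PDE_04859 and PDE_09710 the fall in the clrB deletion was thus far smaller than that of Bgl2.

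PDE_09019 read 16.5, 68.3 and 22.0 FPKM in the clrB deletion, against 179, 156 and 140 in the rcoA deletion and 101, 72.0 and 70.7 in the wild type. Its fall in the clrB deletion was 2.28-fold (log2 change -1.42, SE 0.43, limma adjusted p = 0.045) and 4.22-fold without replicate 2, where that library held 3.55-fold the mean of replicates 1 and 3; the call was lost under 11 of 20 alternative settings, at an adjusted p of 0.0516 to 0.151. Like Bgl1, it was thus highest of its strain in replicate 2. Unlike Bgl1, its mean in the rcoA deletion was above that of the wild type, by 1.95-fold. That change was not called (log2 change 0.97, SE 0.43, limma adjusted p = 0.0739).

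PDE_01565 was low in the rcoA deletion. It read 24.5, 39.4 and 28.3 FPKM in the clrB deletion, against 1.48, 2.04 and 1.79 in the rcoA deletion and 32.2, 30.3 and 32.6 in the wild type. As for Bgl1, the clrB deletion overlapped the wild type (log2 change -0.07, limma adjusted p = 0.783), and the rcoA deletion was below both, here 17.9-fold below the wild type (log2 change -3.57, SE 0.16, adjusted p = 2.61e-07). That was the largest called fall of the list of 33 beta-glucosidase and glucan glucosidase genes in the rcoA deletion.

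The remaining genes of the class had wild type means of 20.2 FPKM or less. In the rcoA deletion PDE_02108 fell 1.64-fold (limma adjusted p = 0.000316), PDE_01277 fell 1.93-fold (adjusted p = 0.00107), and PDE_03485 rose 1.45-fold (adjusted p = 0.00107). PDE_02566, PDE_09535 and PDE_02905 were not called in either deletion against the wild type, with wild type means of 20.2, 4.08 and 2.47 FPKM. By mean level, Bgl1 was first of the 14 genes in the clrB deletion and Bgl2 10th, with PDE_04251 second at 41.0 FPKM. In both other strains Bgl2 was first and Bgl1 second.

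**Figure D3:**
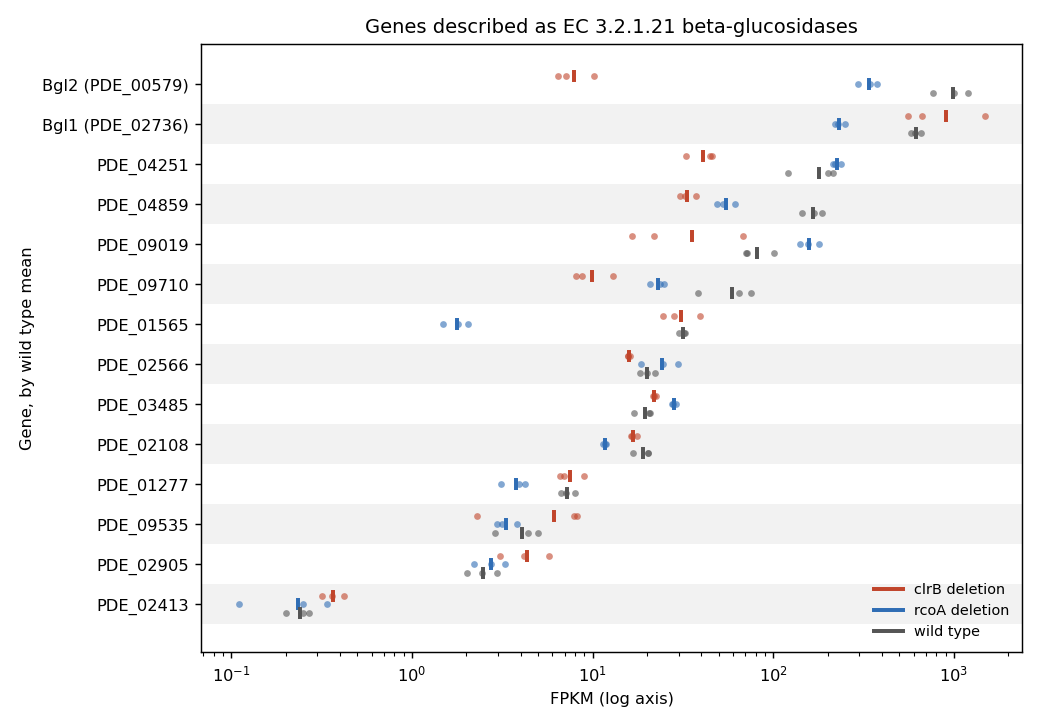
FPKM on a log axis of genes described as EC 3.2.1.21, ordered from top to bottom by wild type mean; each point is 1 library and the short bar is the mean of 3 libraries, with the strains in 3 colours. Bgl2 shows the widest gap between the clrB deletion, at 7.93 FPKM, and the wild type, at 991. Bgl1 averages 906 FPKM in the clrB deletion, with replicate 2 at 1490.4, and 616 in the wild type.

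A word search for beta-glucosidase in the descriptions also took in 17 genes whose KEGG description holds glucan 1,3-beta-glucosidase, and 2 genes of the SUN family. Enzymes of that description act on cell wall glucan. The nr descriptions of some differ, such as a putative endo-beta-1,4-glucanase for PDE_09267 and a peptidoglycan binding domain protein for PDE_06124. This split was made after the list was seen. Of the 33 genes, 31 were tested. In the clrB deletion 4 of these were called higher and 8 lower, beside 13.5% higher and 8.32% lower of all tested genes. In the rcoA deletion 6 of these were called higher and 16 lower, beside 30.4% higher and 34.1% lower of all tested genes. Without clrB deletion replicate 2 the clrB deletion had 7 higher and 11 lower, without clrB deletion replicate 3 it had 2 higher and 5 lower, and without wild type replicate 1 it had 2 higher and 6 lower. Of the 16 glucan genes tested, 4 were called higher and 2 lower in the clrB deletion, and 5 higher and 7 lower in the rcoA deletion, which is near the 30.4% higher and 34.1% lower of all tested genes there. Leaving out 1 library gave 2 to 5 higher and 0 to 5 lower in the clrB deletion, the most without its replicate 2 and the fewest lower without its replicate 3, and 2 higher also without wild type replicate 1. The largest called rise in the clrB deletion was that of PDE_08250, which averaged 22.6 ± 15.3 FPKM in the clrB deletion and 2.39 ± 0.263 in the wild type (log2 change 2.45, limma adjusted p = 0.017; the call was lost under 4 of 20 alternatives). PDE_06124 averaged 1574 ± 101 FPKM in the clrB deletion, 532 ± 123 in the rcoA deletion and 883 ± 40.3 in the wild type, called higher in the clrB deletion and lower in the rcoA deletion. PDE_02800 was also higher in the clrB deletion, 2.58-fold, and lower in the rcoA deletion, 3.35-fold.

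By log2 change, the largest called rise in the rcoA deletion was that of PDE_06441, described as a glucanosyltransferase. It averaged 2634 ± 131 FPKM in the rcoA deletion and 823 ± 94.7 in the wild type (log2 change 1.68, limma adjusted p = 3.12e-05). By fold of means, the largest called rise was instead that of a low gene, PDE_04310, at 3.83-fold. PDE_04310 averaged 1.03 ± 0.454 FPKM in the wild type and 3.96 ± 0.326 in the rcoA deletion (log2 change 1.31, limma adjusted p = 0.000336). PDE_00615 was 2.85-fold higher there, PDE_09267 2.68-fold and PDE_06743 2.30-fold. PDE_00310 was 7.73-fold lower in the rcoA deletion, PDE_08139 5.61-fold (3.35-fold without wild type replicate 3, and a call lost under 3 of 20 alternatives), PDE_08737 2.56-fold and PDE_09783 1.95-fold. Of the SUN family genes, PDE_00248 was 1.99-fold lower and PDE_09218 1.53-fold lower there. PDE_00248 was also lower in the clrB deletion (log2 change -1.61, limma adjusted p = 0.00218), and PDE_08737 1.38-fold lower (adjusted p = 0.0438, lost under 8 of 20 alternatives). In the rcoA deletion the list thus held calls in both directions, with Bgl1 and Bgl2 among the lower ones.

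Most genes of a list of cellulose cleaving enzymes, made by word patterns, were called lower in each deletion. Of its 23 genes, 17 were called lower and 1 higher in the clrB deletion, with a median log2 change of -3.26. In the rcoA deletion 16 were called lower and 4 higher, with a median of -1.62. The list also took in genes with other descriptions, such as the arabinofuranosidase PDE_00016 and the xyloglucan-specific PDE_02886, PDE_06439 and PDE_09014. The gene called higher in the clrB deletion was PDE_09014. PDE_02886, PDE_06439 and PDE_09014 were all called higher in the rcoA deletion, as was the endoglucanase PDE_03711. Over all tested genes 8.32% were called lower and 13.5% higher in the clrB deletion, and 34.1% lower and 30.4% higher in the rcoA deletion. Without replicate 2 of the clrB deletion 19 of the 23 listed genes were called lower and 1 higher in that deletion. With any other library left out 16 or 17 were called lower and 1 higher there. In the rcoA deletion, leaving out 1 library gave 14 to 17 of the listed genes lower and 4 higher. Among the 5 with the highest wild type mean, the folds lower in the clrB deletion were 14.3 for the cellobiohydrolase PDE_07945, 999 for Cel61A (PDE_05633), 323 for the cellobiohydrolase PDE_07124, 237 for the endoglucanase PDE_09226 and 28.8 for Cel7B (PDE_07929). Without replicate 2 of the clrB deletion they were 22.4 for PDE_07945 and 44.6 for PDE_07929. The 125-fold fall of Bgl2 lay inside that range, and the change of Bgl1, which was not called, outside it. PDE_07945 and PDE_07929 were, like Bgl1, higher in replicate 2 of the clrB deletion, at 2.70-fold and 2.64-fold the mean of replicates 1 and 3, and 15 of the 23 genes were above that mean in replicate 2.

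Transporters carry cellobiose and cellodextrins to an intracellular beta-glucosidase. The transporter cdt-c (PDE_00607) read 15.1, 14.7 and 14.7 FPKM in the clrB deletion, against 1461, 1636 and 1809 in the rcoA deletion and 3106, 2694 and 2010 in the wild type. As with Bgl2, the clrB deletion was far below, by 176-fold (limma adjusted p = 2.26e-08), and the rcoA deletion lay between, 1.59-fold below the wild type (adjusted p = 0.00591). CdtD (PDE_00753) read 136, 453 and 153 FPKM in the clrB deletion, against 510.1, 537 and 557 in the rcoA deletion and 1264, 1066 and 791 in the wild type. It was 4.20-fold lower in the clrB deletion (adjusted p = 0.00655), 7.20-fold without replicate 2, and was not called in the rcoA deletion (log2 change -0.93, adjusted p = 0.0655), but was called lower there without clrB deletion replicate 1 or 2. The third, cdt-g (PDE_09395), was not called in the clrB deletion (log2 change 0.06, adjusted p = 0.708) and was 1.36-fold lower in the rcoA deletion (adjusted p = 0.00441).

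Among the regulators, ClrB itself was 2.92-fold lower in the rcoA deletion (log2 change -1.53, limma adjusted p = 3.17e-06), a log2 change equal to that of Bgl2 to 2 decimals. It read 57.7, 62.3 and 69.8 FPKM in the rcoA deletion, against 191, 200.2 and 163 in the wild type. XlnR (PDE_07674), an activator of xylanase and cellulase genes, was 2.16-fold lower in the rcoA deletion (adjusted p = 0.000116) and 1.40-fold lower in the clrB deletion (adjusted p = 0.036, lost under 8 of 20 alternatives). CreA (PDE_03168), the carbon catabolite repressor, was 2.31-fold higher in the rcoA deletion (adjusted p = 8.69e-06) and was not called in the clrB deletion (log2 change 0.22, adjusted p = 0.13). Which of these regulators acts on Bgl1 or Bgl2 was not tested.

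**Figure D4:**
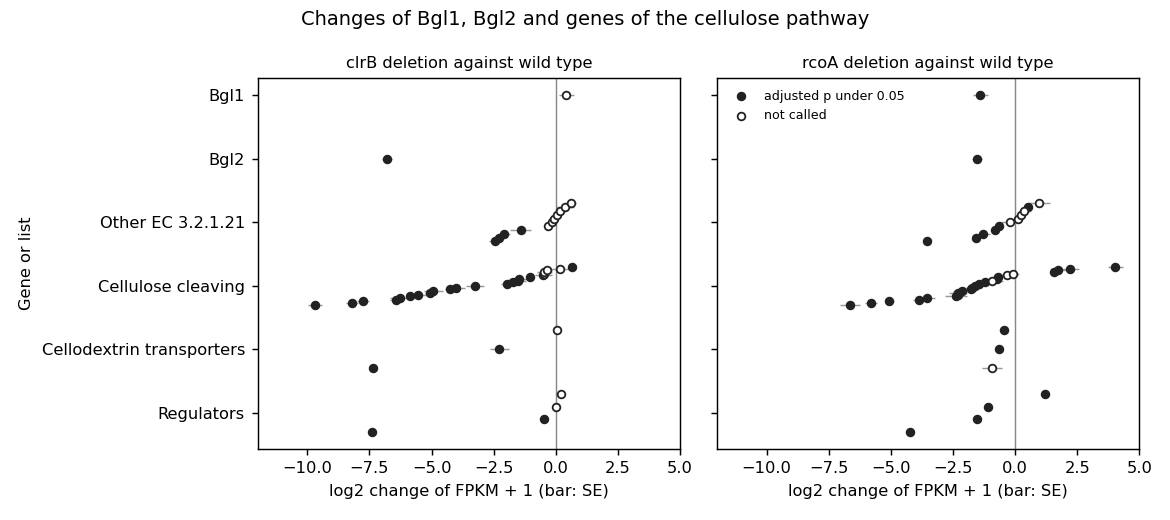
Log2 change of FPKM + 1 for Bgl1, Bgl2, the other beta-glucosidases of the class, cellulose cleaving enzymes, cellodextrin transporters and regulators in the clrB deletion against the wild type (left) and the rcoA deletion against the wild type (right); each point is 1 gene, bars are SE, filled points have an adjusted p under 0.05 and open points were not called. Bgl2 sits at -6.79 on the left and -1.53 on the right, and Bgl1 at 0.42 (open) on the left and -1.40 on the right.

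The genes whose profile over the 9 libraries was most like that of each member were found by Pearson's correlation of log2(FPKM + 1) among 7242 tested genes with a mean of at least 10 FPKM. All libraries belong to 3 strains, so the coefficients mostly reflect 3 strain means, and they are given as a description. For Bgl2 the first was ClrB, at 0.998. It was followed by PDE_02102, described as a cellobiosidase or xylanase with a cellulose binding domain (0.996), a hypothetical protein PDE_03927 (0.996), endoglucanase II PDE_00507 (0.995) and xylanase B PDE_02101 (0.995). PDE_02102 read 7.65, 17.5 and 11.0 FPKM in the clrB deletion, against 307, 290.0 and 344 in the rcoA deletion and 1124, 1061 and 1013 in the wild type. PDE_00507 averaged 14.3 ± 3.36 FPKM in the clrB deletion, 301 ± 60.3 in the rcoA deletion and 511 ± 126 in the wild type. PDE_02101 averaged 44.1 ± 12.4 FPKM in the clrB deletion, 274 ± 23.8 in the rcoA deletion and 525.5 ± 102 in the wild type. The means of PDE_02102, PDE_00507 and PDE_02101 had the order of Bgl2, lowest in the clrB deletion and highest in the wild type. ClrB is the gene deleted in the clrB deletion, so its low values there are set by the construction of the strain. Bgl1 was 5439th in the list for Bgl2, at -0.44.

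For Bgl1 the most alike were PDE_08993 (0.998), PDE_05606 (0.992), PDE_06525 (0.991), PDE_04040 (0.991) and PDE_01217 (0.989). Their KEGG descriptions were, in that order, glycerol kinase, threonine dehydratase, ABC transporter, dihydroxyacetone kinase and fatty acid synthase alpha subunit. The nr description of each was only a hypothetical protein. PDE_08993 read 40.0, 57.9 and 43.6 FPKM in the clrB deletion, against 30.1, 30.1 and 28.8 in the rcoA deletion and 41.3, 43.1 and 41.1 in the wild type. PDE_01217 read 79.4, 520.4 and 165 FPKM in the clrB deletion, against 14.9, 15.7 and 16.0 in the rcoA deletion and 87.5, 138 and 75.4 in the wild type. Both were highest in replicate 2 of the clrB deletion and lowest in the rcoA deletion, as was Bgl1. Without replicate 2 of the clrB deletion 1 of the 5 genes for Bgl1 was the same (PDE_08993), against 4 of 5 for Bgl2, and by Spearman's rank correlation 0 of 5 were the same for either gene. None of the 5 genes for Bgl1 is described as acting on cellulose.

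**Figure D5:**
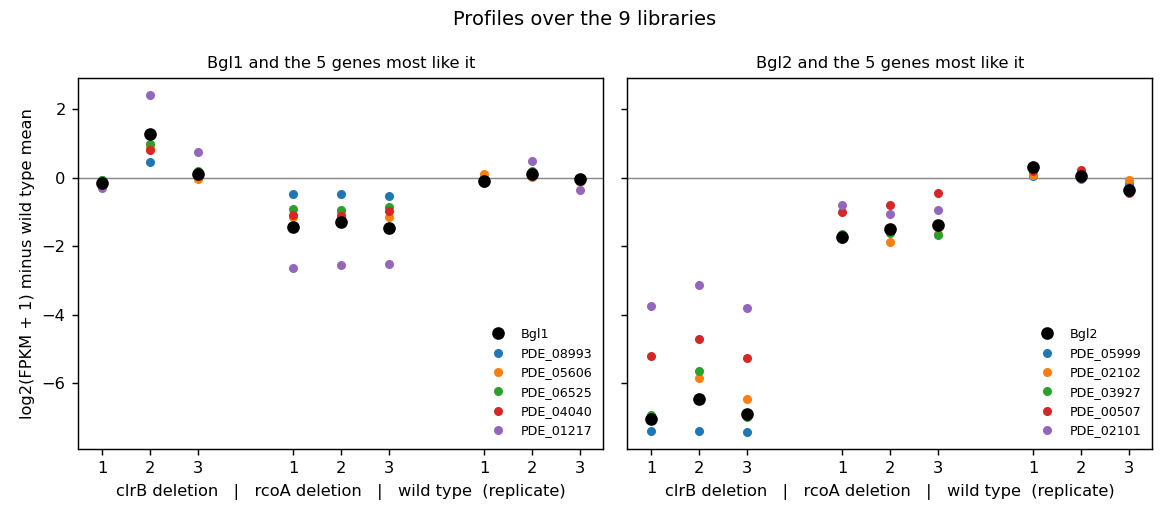
Log2(FPKM + 1) minus the wild type mean for Bgl1 (left) and Bgl2 (right), in black, and the 5 genes most like each, in colours, over the 9 libraries ordered as clrB deletion, rcoA deletion and wild type. Genes on the right lie lowest in the clrB deletion, and those on the left lie lowest in the rcoA deletion and highest in replicate 2 of the clrB deletion.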

How the data were processed

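Per the labels' protocols, mRNA was purified with oligo(dT) beads, and NlaIII and MmeI were used to turn its cDNA into short tags. The authors deposited FPKM to 2 decimals for 9907 genes with KEGG and nr descriptions; the aligner, the gene lengths and the genome are not stated in the labels or the file header. Another 3 per-library columns matched no sample and were not used. Matching to a RefSeq gene table (9964 genes, assembly ASM172317v3) found 0 of the identifiers, so neither sequences nor coordinates are given. Low FPKM values did not resolve the relative depth of the libraries.

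From these values, log2(FPKM + 1) of 9097 genes with a mean of at least 1 FPKM was fitted in R 4.3.3 by limma 3.58.1, over 9 libraries with 1 mean for each strain and an intensity trend, after the same code was tested on simulated data. Tests were two-sided, with Benjamini-Hochberg adjustment over all tested genes and calls at an adjusted p under 0.05. Fold changes are ratios of mean FPKM, given where both means reached 1. Lists were word patterns in the descriptions or identifiers. Named were the members, the 5 genes most like each by Pearson's correlation, genes within 3 identifiers, beta-glucosidase list genes with a strain mean of at least 10 FPKM or the largest called change, the 5 cellulose cleaving genes with the highest wild type mean, and every transporter, regulator and conidiation marker; genes of the class under 10 FPKM were named to account for all of them. Members and lists were chosen with earlier results of these data known. There were 20 alternatives per result, covering pseudocount, filter, scaling, trend, array weights, libraries fitted, replicate block and each library left out.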

Additional observations from a re-analysis of the deposited data

How the results depend on the processing

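Bgl2 kept its direction and its call in all 3 comparisons under 20 alternatives, with log2 changes of -6.97 to -6.25 in the clrB deletion against the wild type, -1.71 to -1.38 in the rcoA deletion against the wild type, and -5.43 to -4.73 between the deletions. Bgl1 kept both in the rcoA deletion against the wild type (-1.50 to -1.32, highest limma adjusted p 0.0137) and between the deletions (1.39 to 2.10). Bgl1 in the clrB deletion against the wild type was not called under any of them (limma adjusted p 0.134 to 0.961). Leaving out 1 library gave -0.00918 to 0.70 there, and the sign turned only without replicate 2 of the clrB deletion. Called genes in the clrB deletion against the wild type numbered 1987, against 4120 with array weights, 1274 with only these strains fitted and 724 to 3409 with 1 library left out. The low of 724 was without replicate 3 of the clrB deletion; 3409 was without replicate 2, and 1909 of the 1987 were among them. Without wild type replicate 1, 2 or 3 the count was 873, 1075 or 1283, and without clrB deletion replicate 1 it was 1327. In the other comparisons counts stayed within 1.5 times, at 5118 to 7303 and 4551 to 7180. The share of calls that were higher in the clrB deletion against the wild type was 61.9%, against 45.7% after trimmed mean scaling, 50.2% after scaling to equal medians and 49.2% after quantile normalization; between the deletions it was 58.6%, against 48.6%, 46.6% and 45.3%, where the median of all genes shifted by -0.117, -0.141 and -0.161. No scaling turned the direction of Bgl1 or Bgl2. Libraries that share a replicate number are not shown to be paired: their deviations correlated at -0.161 to 0.341, over 0.1 in 2 of 9 pairs. With the replicate block 1725, 5803 and 5380 genes were called in the clrB deletion, the rcoA deletion and between them, and no call of Bgl1 or Bgl2 changed. The Bgl1 adjusted p with the block was 0.272, 0.0026 and 0.000898. There were 183 calls of genes on the lists, near a member by identifier or most like a member, Bgl1 and Bgl2 aside. Not all of these genes are named here. Of the 183 calls, 157 were kept under every alternative, 26 were lost under some and 0 reversed. With 3 libraries per strain and unknown depth, the SE of 0.31 limits what can be said of Bgl1 in the clrB deletion.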

Other observations

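Genes whose identifiers lie next to those of Bgl1 and Bgl2 were read as well; close numbers are not shown here to be neighbours in the genome. Of the 6 genes within 3 numbers of Bgl1, 0 were called in the clrB deletion against the wild type by limma. Over all tested genes 21.8% were called there, so so few genes show little. In the rcoA deletion 5 of the 6 were called lower, where 34.1% of all tested genes were. The hypothetical proteins PDE_02733 and PDE_02734 both had a log2 change of -1.96, larger than that of Bgl1. PDE_02733 averaged 16.4 ± 3.54 FPKM in the rcoA deletion and 66.1 ± 10.6 in the wild type, and PDE_02734 averaged 0.557 ± 0.118 FPKM in the rcoA deletion and 5.08 ± 0.551 in the wild type. PDE_02737 was 2.36-fold lower, PDE_02738, described as an arsenite transporter, 1.83-fold lower, and PDE_02739 1.30-fold lower, a call lost under 8 of 20 alternatives. PDE_02735, described as an ABC transporter of subfamily B, was not called (log2 change -0.28, limma adjusted p = 0.217).

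Next to Bgl2, the hypothetical protein PDE_00578 averaged 12.8 ± 0.174 FPKM in the clrB deletion, 11.0 ± 0.467 in the rcoA deletion and 28.9 ± 2.96 in the wild type. It was 2.25-fold lower in the clrB deletion (limma adjusted p = 0.000166) and 2.62-fold lower in the rcoA deletion (adjusted p = 4.05e-06), so it was lower in both deletions as Bgl2 was, by far less in the clrB deletion. PDE_00577, described as cell division cycle 20, was 2.44-fold lower in the rcoA deletion, and PDE_00580, described as SEL1, 1.24-fold lower. PDE_00582, described as the RPB1 subunit of RNA polymerase II, was 1.44-fold higher in the clrB deletion, a call lost under 7 of 20 alternatives, and 1.46-fold higher in the rcoA deletion. PDE_00576 and PDE_00581 were not called in either deletion.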
